A study of Mus musculus with 2 samples.

Results

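The genes described here are Ly6 genes and markers of monocyte subsets, measured in tumour-infiltrating monocytic myeloid-derived suppressor cells (M-MDSCs) of mice on a normal-salt diet (NSD) or a high-salt diet (HSD). They were a list of 10 named genes, Ly6c1, Ly6c2, Ly6a, Ly6e, Ly6i, Ly6g, Cx3cr1, Treml4, Adgre1 and Adgre4, and every non-control probe was taken whose transcript identifier belonged to 1 of them. This gave 8 genes and 11 probes, out of 20653 named genes and 39413 probes with a value on both arrays. No probe was matched to Ly6c2 or Ly6g, so these 2 genes were not analysed here.

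Both groups were female BABL/c mice, spelled as in the labels, which were starved for 1 day and then given 1000000 cells of 4T1, a mouse mammary carcinoma line, under the skin of the left armpit. The NSD group had chow with 0.4% NaCl and tap water for 16 days, and the HSD group had chow with 4% NaCl and drinking water with 1% NaCl for the same time. M-MDSCs were taken from the tumours with a magnetic bead kit, equal numbers of cells were mixed within each diet, and the RNA of each mix was labelled with 1 dye (Cy3) and put on 1 array. Each diet therefore has 1 value per spot, the variation among mice is not known, and nothing was tested. The isolation used antibodies against Gr-1, an epitope shared by the Ly6G and Ly6C proteins, and against Ly-6G, so the products of Ly6c1, Ly6c2 and Ly6g were handles of the sort in both groups. The arrays lay on the same slide in different positions, so position and diet cannot be told apart.

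Ly6 genes encode small proteins with a 3-finger fold, most of them tethered to the cell membrane by a lipid anchor. Ly6C is the surface protein by which mouse monocytes are divided into classical, Ly6C-high cells, which enter inflamed tissue, and patrolling, Ly6C-low cells, which stay along the vessel wall. Cx3cr1, Treml4 and Adgre4 are used as markers of the patrolling side, and Adgre1 encodes EMR1, a surface receptor that marks mouse macrophages. Several Ly6 genes, Ly6a, Ly6e and those of Ly6C among them, are known to be induced by interferons.

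Promoters are shown for the members whose proteins served in the sort and for the members called higher below. Each is the RefSeq window of 250 bases before and 50 bases after a transcript start, on assembly GRCm38.p6, written 5′ to 3′ on the strand of the gene. Capitals mark GAGGAAGT, a PU.1-like motif, PU.1 being the factor on which myeloid cells depend. Windows for 6 members were found in the table used, 9 windows in all. Ly6a, Ly6e, Ly6i and Adgre1 had none there and were not searched. Ly6c1, Ly6c2 and Ly6g have 2 starts each, and the start shown for each was picked with the motif matches known.
Ly6c1, second start, chr15:75048614-75048913, minus strand: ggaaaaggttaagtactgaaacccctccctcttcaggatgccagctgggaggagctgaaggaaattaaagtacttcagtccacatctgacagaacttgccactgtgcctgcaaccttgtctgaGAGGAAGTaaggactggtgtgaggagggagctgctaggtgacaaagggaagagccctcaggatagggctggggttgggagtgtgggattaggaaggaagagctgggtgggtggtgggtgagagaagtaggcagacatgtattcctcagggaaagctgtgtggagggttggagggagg
Ly6c2, first start, chr15:75111922-75112221, minus strand: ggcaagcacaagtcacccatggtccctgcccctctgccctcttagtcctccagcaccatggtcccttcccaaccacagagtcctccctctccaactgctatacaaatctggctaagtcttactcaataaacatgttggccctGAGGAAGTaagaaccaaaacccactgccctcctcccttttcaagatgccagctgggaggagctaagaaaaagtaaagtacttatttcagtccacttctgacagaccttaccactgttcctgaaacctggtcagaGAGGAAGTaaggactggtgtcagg
Ly6g, second start, chr15:75155079-75155378, plus strand: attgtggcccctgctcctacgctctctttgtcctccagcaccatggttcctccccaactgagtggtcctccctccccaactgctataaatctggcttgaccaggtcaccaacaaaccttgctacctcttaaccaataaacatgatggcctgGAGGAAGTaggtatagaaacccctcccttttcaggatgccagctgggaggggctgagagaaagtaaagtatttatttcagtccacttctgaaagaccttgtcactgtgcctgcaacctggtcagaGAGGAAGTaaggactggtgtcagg
Cx3cr1, chr9:120068247-120068546, minus strand: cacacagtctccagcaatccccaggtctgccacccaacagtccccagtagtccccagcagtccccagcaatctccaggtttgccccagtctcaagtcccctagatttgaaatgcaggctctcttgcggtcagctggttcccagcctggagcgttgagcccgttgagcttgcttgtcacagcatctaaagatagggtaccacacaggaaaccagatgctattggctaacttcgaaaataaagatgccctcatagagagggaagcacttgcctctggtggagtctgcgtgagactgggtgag
Treml4, chr17:48264045-48264344, plus strand: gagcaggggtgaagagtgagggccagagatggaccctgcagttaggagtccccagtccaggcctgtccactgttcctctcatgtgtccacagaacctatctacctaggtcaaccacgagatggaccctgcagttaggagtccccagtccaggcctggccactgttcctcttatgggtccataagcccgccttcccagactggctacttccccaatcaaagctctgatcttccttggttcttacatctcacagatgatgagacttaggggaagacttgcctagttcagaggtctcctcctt

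The windows of Ly6c1, Ly6c2 and Ly6g resembled each other. Of the printed windows, that of Ly6c1 was identical to that of Ly6c2 at 86.7% of 143 aligned bases and to that of Ly6g at 87.0% of 146, and Ly6c2 and Ly6g were identical at 85.7% of 273. Over all pairs of starts the identity was 77.6% to 89.3% for Ly6c1 and Ly6c2, 84.5% to 87.4% for Ly6c1 and Ly6g, and 80.7% to 86.0% for Ly6c2 and Ly6g. Searched on both strands, GAGGAAGT stood once in this Ly6c1 window, at position -127. The window of the first Ly6c1 start overlaps this one and ends within the same site, so it holds no full match. Positions count the start as 1, with no position 0. The motif stood at 2 places in the printed windows of Ly6c2 (-108 and 27) and Ly6g (-99 and 27). It stood at 2 places at the other Ly6c2 start (-142 and -8) and at 1 at the other Ly6g start (-31). For each of these 2 genes the windows of the starts overlap, so the latter are the same sites counted from another start. Among the other members with a window it stood in Adgre4 alone, on the minus strand at position 42, and 3.2% of 32851 mouse promoters hold it. The interferon-response core GAAANNGAA, held by 8.56% of promoters, and the STAT-binding motif TTCNNNGAA, held by 8.3%, were in none of these 9 windows, which do not include Ly6e or Ly6a. These matches are descriptions of the letters and not of binding.

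All values below are processed signals in intensity units, with the spot error that the scanner software gives, which covers the measurement of a spot and not mice. For the member probes this error was 10.0% to 10.6% of the signal, from the dimmest to the brightest. It is thus close to a fixed share of the signal and is not a measured spread. A difference is HSD minus NSD on the log2 scale after each array was divided by the 75th percentile of its signals, 252 for NSD and 233 for HSD, which adds 0.11 to the log2 ratio of the raw signals. A gene or probe was called when it differed at least 1.5-fold and stood well above background under at least 1 diet. All 11 probes did so under both diets, each was printed in 1 spot, and none was saturated. A bulk signal cannot tell fewer cells of a type apart from less RNA per cell.

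Of the 8 measured genes, by the brightest probe of each, 2 were called higher in the HSD group (Cx3cr1 and Treml4), 1 was called lower (Ly6e) and 5 were neither. Among all 16336 genes above background, 9.85% were called higher and 10.3% lower. By probe, 3 of 11 were higher and 1 was lower, against 10.2% and 8.91% of 29628 probes. The median difference was -0.13 over the members and 0.045 over all genes. With 8 genes these counts are a description and are not set apart from the rest of the array.

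**Figure D1:**
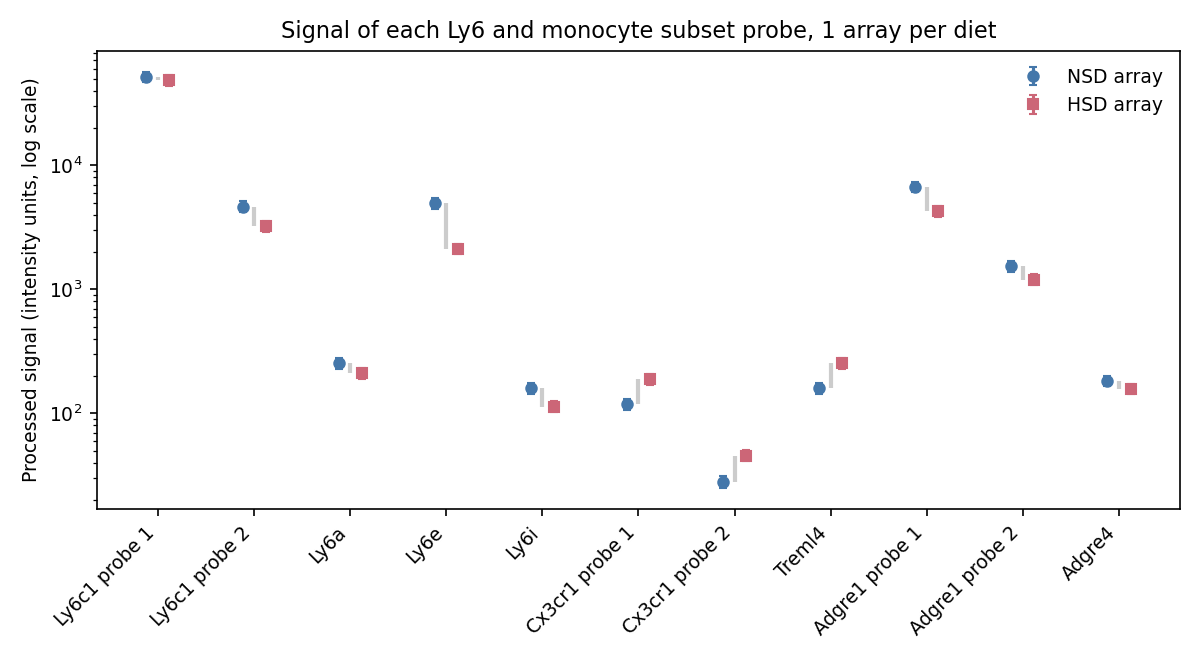
Processed signal (intensity units, log axis) of the 11 probes under NSD (circles) and HSD (squares), with the spot error of the scanner software as bars and a grey line joining the values of a probe. Ly6e goes from 4922 to 2126, Cx3cr1 and Treml4 are higher on the HSD array, and the first Ly6c1 probe is nearly level. Heights of different probes are not comparable.

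The sort marker itself was close to level by its bright probe. The first Ly6c1 probe, on transcript NM_001252055, gave 51811 ± 5181 under NSD and 48478 ± 4848 under HSD. The scaled difference was 0.018 ± 0.20, far within the spot error, and its sign depended on the scaling, being -0.071 with quantile normalization, -0.13 with cyclic loess, -0.022 with the 75th percentile of detected probes and -0.075 in the deposited log2 values. The second Ly6c1 probe, on transcript NM_001252058, read lower in the HSD group. It gave 4649 ± 465 and 3210 ± 321, a difference of -0.42 ± 0.20, or 1.34-fold, which stayed between -0.52 and -0.34 under the other settings. The probes of this gene thus differed from each other by -0.44 ± 0.29, and which of them also binds transcripts of Ly6c2 or another relative was not tested.

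Ly6e was the only member called lower. This gene, also known as Sca-2 or Tsa-1, gave 4922 ± 492 under NSD and 2126 ± 213 under HSD. The HSD signal was 2.14-fold lower after scaling, a difference of -1.10 ± 0.20, and the range over the other settings was -1.19 to -1.09. It is also the one member past a 2-fold threshold.

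Ly6a, which encodes Sca-1, an antigen of blood stem cells and activated lymphocytes, was near level. Its signal was 253 ± 25.3 under NSD and 210 ± 21.0 under HSD, a difference of -0.16 ± 0.20 that is within the spot error. Ly6i, which lies between Ly6e and Ly6a on the chromosome, gave 160 ± 16.0 and 113 ± 11.4, a difference of -0.38 ± 0.20, or 1.30-fold. It was not called, and its range over the other settings was -0.42 to -0.23. Of the 5 Ly6 probes, 4 lay below 0, and the exception was the first Ly6c1 probe, whose sign turned with the scaling.

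Cx3cr1, the receptor of fractalkine, read higher in the HSD group by both of its probes. The first gave 119 ± 11.9 under NSD and 188 ± 18.8 under HSD, a difference of 0.78 ± 0.20 or 1.71-fold. The second gave 28.1 ± 2.98 and 45.7 ± 4.67, a difference of 0.82 ± 0.21 or 1.76-fold. The probes of this gene differed from each other by 0.042 ± 0.29. With normexp background correction the first probe was 1.55-fold higher and the second 1.33-fold, below the threshold. The second probe was the dimmest of the members against its surroundings, at 2.56 times the local background in the NSD group.

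Treml4, a receptor that binds dying cells and augments signalling by an endosomal Toll-like receptor, was also called higher. It gave 160 ± 16.0 under NSD and 254 ± 25.5 under HSD, a difference of 0.79 ± 0.20 or 1.72-fold, with a range of 0.71 to 0.82 over the other settings. Adgre4, which encodes the related receptor EMR4, was near level. It gave 183 ± 18.3 and 158 ± 15.8, a difference of -0.098 ± 0.20. The patrolling markers of the list thus did not move as one, with Cx3cr1 and Treml4 called and Adgre4 not.

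Adgre1, the macrophage marker, was lower in the HSD group by both probes, and just short of the threshold. The first probe gave 6723 ± 672 under NSD and 4252 ± 425 under HSD, a difference of -0.55 ± 0.20 or 1.46-fold. With other scalings it passed the threshold, at -0.63 with quantile normalization, -0.65 with cyclic loess, -0.59 with the 75th percentile of detected probes and -0.63 in the deposited values. The second probe gave 1540 ± 154 and 1200 ± 120, a difference of -0.25 ± 0.20, not past the threshold under any setting.

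**Figure D2:**
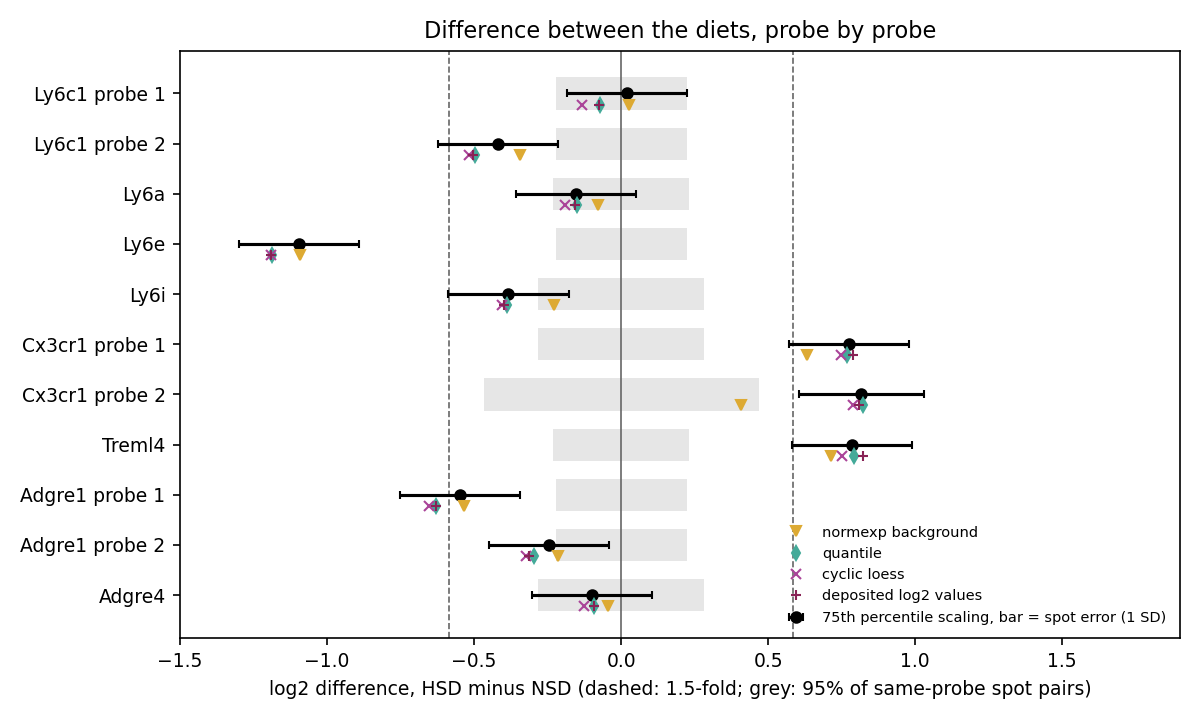
The log2 difference (HSD minus NSD) of each of the 11 probes after scaling on the 75th percentile (black, bars show the spot error) and under 4 other settings (coloured marks), with dashed lines at 1.5-fold and grey boxes holding 95% of the differences between spots of one probe on one array at like signal. Ly6e stands at -1.10 and both Cx3cr1 probes and Treml4 stand between 0.78 and 0.82, while the first Adgre1 probe crosses the lower line under some settings.

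The only repeated measurements on the arrays are probes printed in several spots. Over 289 such probes, in 5 groups by signal, 95% of spot pairs within an array differed by less than 0.22 to 0.47 in the groups that hold the members. Of the 11 member probes, 8 differed between the diets by more than this. The others were the first Ly6c1 probe, Ly6a and Adgre4. How many of all probes differ by more than this was not counted. Over all genes above background the median size of the difference was 0.28, so the count of 8 is not particular to the members. No member passed the largest difference between spots in its signal group, which reached 1.84 for the group of Ly6e and 0.88 for that of Treml4. This spread is technical and does not hold the variation between arrays, between mice or between extractions.

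Ly6c1, Ly6a, Ly6e and Ly6i lie together on chromosome 15, in a stretch from Psca to Gpihbp1 that holds 29 protein-coding genes in the RefSeq annotation. Of these, 17 were above background, 3 were dim on both arrays and 9 had no matched probe. The members were neighbours in the order Ly6e, Ly6i, Ly6a, Ly6c1, with differences of -1.10, -0.38, -0.16 and 0.018. Of the other 13 measured genes, by their brightest probes, 11 lay above 0, where 54.2% of all genes did, and 0 were called lower, against 10.3% of all genes. Several of the 13 had low signals, such as Gml (7.12 and 7.63) and Ly6m (8.50 and 10.6), whereas the shares are over genes of all signals. The second probe of Lynx1 was at -0.77. Slurp1, which encodes a secreted relative, read 10.4 under NSD and 15.9 under HSD (0.72). Ly6h, known mainly from brain, read 6.86 and 10.3 (0.70), and neither passed the threshold with normexp background correction.

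**Figure D3:**
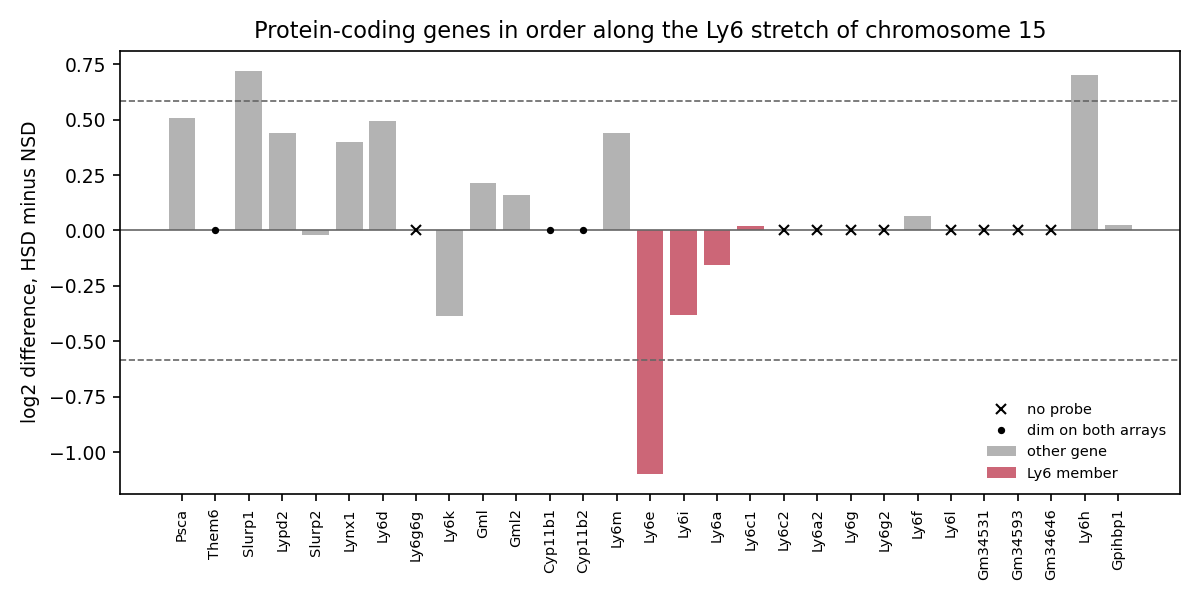
The log2 difference (HSD minus NSD) of the 29 protein-coding genes of the Ly6 stretch of chromosome 15, in chromosome order and not to scale. Red bars are the 4 measured Ly6 members and grey bars the other 13 measured genes, crosses are genes with no matched probe and dots genes dim on both arrays. Dashed lines mark 1.5-fold, which Ly6e passes below and Slurp1 and Ly6h pass above.

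The wider family of proteins with the same fold held no gene called lower. Of 31 listed relatives 29 had a probe and 22 were above background, with 4 called higher, 0 called lower and a median of 0.19. The shares of all genes were 9.85% higher and 10.3% lower. Ly6g5b, a relative in the major histocompatibility region, had the largest rise, from 124 to 218 (0.93). Lypd6b, read in 10 spots, went from 46.7 to 75.2 (0.80). With normexp background correction 1 of these genes was called higher in place of 4. Plaur, the urokinase receptor of myeloid cells, was near level at 5752 and 4691 (-0.18).

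Relatives of the receptors Treml4, Adgre1 and Adgre4, with the Cx3cr1 ligand, were counted over 7 genes. Of these, 0 were called higher and 2 lower, beside 9.85% and 10.3% of all genes, and the median was -0.17. Trem2, a lipid-sensing receptor of macrophages, had the largest fall, from 3348 under NSD to 669 under HSD (-2.21). Treml1, known from platelets, went from 32.9 to 18.9 (-0.69) and was at -0.15 with normexp background correction. Cx3cl1, the gene of fractalkine, read 28.9 and 19.5, which was not called (-0.45). Of the 7, 3 lay above 0 as Treml4 did, namely Trem3 (0.29), Treml2 (0.25) and Trem1 (0.13), none of them called. The other 4 lay below 0, the 2 called relatives among them.

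Other genes of the classical, Ly6C-high programme were split. Of 12 genes, all above background on both arrays, 2 were called higher and 2 lower, with a median of -0.18. Among all genes 9.85% were called higher and 10.3% lower, so the split is not set apart from the rest of the array. Vcan, a matrix proteoglycan made by monocytes, went from 374 to 550 (0.67), and Chil3, which encodes the secreted lectin Ym1, from 34255 to 49710 (0.65, and 0.50 at the lowest among the other scalings). Fcgr1, the high-affinity IgG receptor, went from 305 to 21.9 (-3.68). Ccr2, the chemokine receptor by which these monocytes leave the bone marrow, went from 259 to 139 (-0.78). With normexp background correction 1 was called higher and 2 lower, Vcan being at 0.56. With the median over a gene's probes, 1 was called higher and 3 lower, with a median of -0.020, and both other probes of Ms4a4c (-1.36 and -0.83) and the second of F13a1 (-0.61) passed the lower threshold.

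In the patrolling, Ly6C-low programme, to which Cx3cr1 and Treml4 belong, no other listed gene was called higher. Of 14 listed genes 11 were above background, with 0 called higher and 3 lower, beside 9.85% and 10.3% of all genes. With 11 genes these counts are a description. Of the 11, 6 lay above 0 and 5 below, with a median of 0.084, and -0.028 with cyclic loess. The largest rises, not called, were Itgal (0.47, other probe 0.52) and Spn (0.40, other probe 0.52). The largest falls were in genes of lipid handling, Fabp4, from 543 to 69.6 (-2.85), and Cd36, from 334 to 97.6 (-1.66). Nr4a1, the transcription factor on which patrolling monocytes depend, read 791 and 555 and was not called (-0.40).

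The lower Adgre1 signal stood beside a list of macrophage maturation genes in which 8 of 10 genes above background were called lower and 0 higher, with a median of -1.81. Mrc1, the mannose receptor, went from 134 to 5.49 (-4.50), and C1qc, a chain of complement C1q, from 52.6 to 5.61 (-3.11). C1qb, another chain and the 1 gene of the 10 above 0, read 50.4 and 58.4 (0.33). Csf1r, the receptor for the growth factor of the lineage, was not called, at 11343 and 8112 (-0.37). With normexp background correction 6 were lower and the median was -0.67, with Mrc1 at -1.56 and C1qc at -0.74.

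The lower Ly6e signal stood beside type I interferon-induced genes, of which all 14 above background were called lower, with a median of -2.56. Ifi44 went from 487 to 23.5 (-4.26) and Ifit3, which binds foreign RNA with its partners, from 5648 to 337 (-3.95). With normexp background correction 13 were lower. Of the other measured Ly6 members named above as induced by interferons, Ly6a was at -0.16, and the Ly6c1 probes were at 0.018 and -0.42. The part of the interferon-induced genes in the Ly6e value was not tested. All lists were written with results of these arrays known, so their direction is a description.

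**Figure D4:**
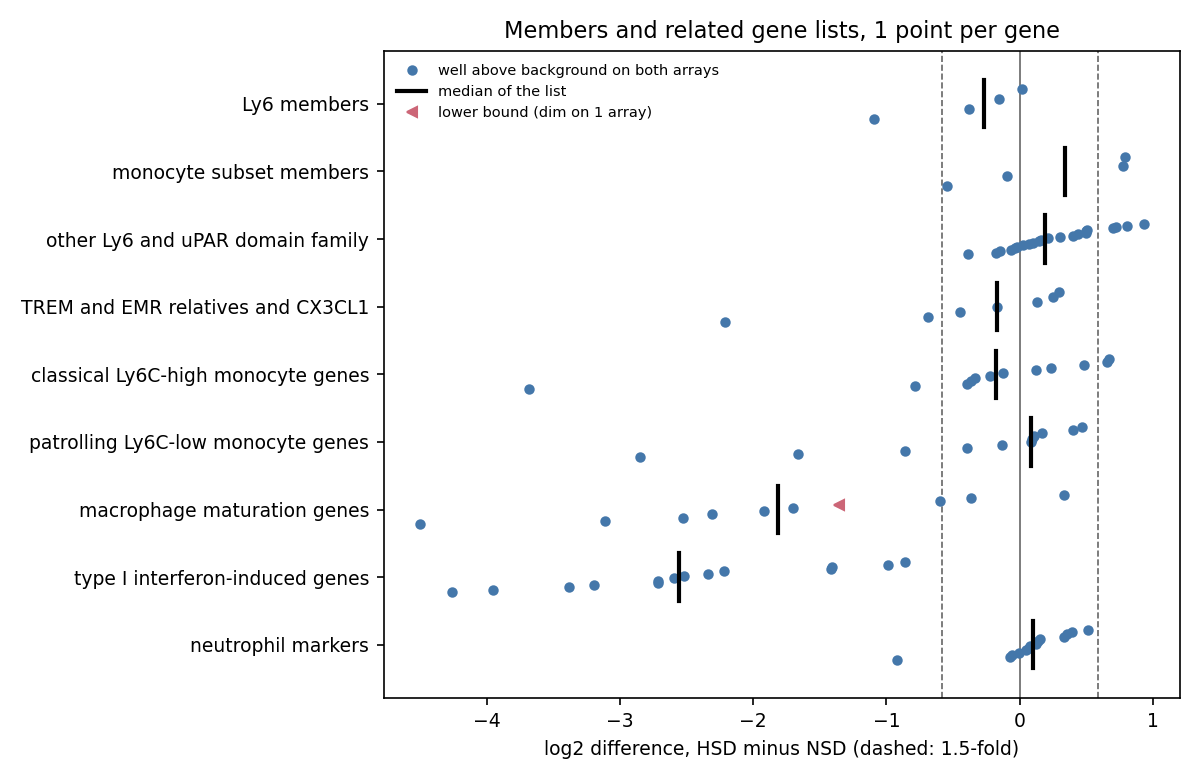
The log2 difference (HSD minus NSD) of each gene above background, 1 point per gene, in the 2 member lists, 6 related lists and the neutrophil markers. Black bars are list medians, dashed lines mark 1.5-fold, and the triangle is a gene dim on 1 array, for which the value is a lower bound. The 14 interferon-induced genes all lie below the lower line, while the members lie on both sides of 0.

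Summed signals below are not scaled, and the scaling adds 0.11 to the log2 of their ratio. Of the markers of the labelled cell type, Ly6c1, Csf1r, Ccr2 and F13a1 were well above background on both arrays. So were 71.9% of all probes for NSD and 72.4% for HSD, so this does not identify the cells. All 14 neutrophil markers also passed on both arrays. Their signals summed to 439816 under NSD and 437673 under HSD, a scaled log2 ratio of 0.11. Their median difference was 0.099 and turned to -0.022 with quantile normalization, -0.053 with cyclic loess and -0.020 in the deposited values. The 1 neutrophil marker called was Mpo, a granule enzyme, from 3536 to 1723 (-0.92). Camp, another of them, read 61817 under NSD and 59920 under HSD. Ly6c1 read 51811 and 48478 and Ccr2 259 and 139, though heights of different probes are not comparable.

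Markers of other cell types differed from list to list. All 7 B cell and plasma cell markers lay above 0 in the HSD group, with signals that summed to 7957 under NSD and 10155 under HSD, and 1 of them was called, Jchain (0.96). Of 8 T and NK cell markers above background 1 was called lower, Cd3e (-1.09), with summed signals of 2863 and 3282, and Ncr1 was dim. Plasmacytoid dendritic cell markers summed to 16634 and 16220, a scaled log2 ratio of 0.078, with 2 of 6 called lower, Klk1 (-1.13) and Ccr9 (-0.74). Conventional dendritic cell markers summed to 898 and 788, with 1 of 6 called higher, Clec9a (0.80), and 2 lower, 1 of them Batf3 (-1.12). Dendritic cells are listed because some of them are known to carry Cx3cr1 and Treml4.

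Each list for cells outside the blood lineages held at least 1 gene dim on both arrays. So did the T and NK cell list (Ncr1), the conventional dendritic cell list (Xcr1), and the patrolling and macrophage maturation lists. The 6 carcinoma markers above background summed to 155 and 143, with 3 called higher, among them Krt18 (0.76) and Epcam (0.70), and Krt19 was dim. The 5 fibroblast markers above background summed to 166 and 143, with Pdgfrb called higher (0.59) and Col3a1 (-1.09) and Dcn (-0.80) lower, and Lum and Pdgfra were dim. The 7 endothelial markers above background summed to 312 and 329 with 0 called by the brightest probe, and Emcn was dim. The second Kdr probe was at -2.49, and with the median over a gene's probes 1 endothelial marker was called lower. With normexp background correction 0 of the dendritic cell, carcinoma and fibroblast markers were called. The part of any of these cell types in the values of the members was not tested.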

How the data were processed

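Cy3-labelled RNA from the pooled M-MDSCs of each diet was hybridised to 1 Agilent Mouse GE v2 array. The authors deposited the scanner output of Agilent Feature Extraction 11.0.1.1, whose processed signal is a background-corrected intensity. They also deposited a table of log2 values normalized in GeneSpring, by a method not given in the sources used here, and this table was used as an alternative only (column medians 4.61 and 4.61). Over 27236 probes, its columns ran with the log2 signals of the same array with slopes of 1.02 for NSD and 1.01 for HSD, which settles its scale and direction, while how it was centred is not given.

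Control spots and outlier-flagged spots (162 for NSD and 179 for HSD) were dropped, log2 signals were averaged per probe, and from each array its 75th percentile was subtracted. Probes were named by matching transcript identifiers to RefSeq on GRCm38.p6 (27223 of 39413 probes, 69.1%). A probe with several spots was well above background if at least 50% of its spots were, which held for 71.9% of probes for NSD and 72.4% for HSD. A gene took the value of its brightest probe. A probe dim on 1 array gave only a lower bound. The array was designed on an older assembly, so gene coordinates are not given.

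With 1 array per diet there is no test and no p-value, and precision is limited by the number of arrays. The members and all lists were chosen with earlier results of these data known. Apart from the members, the genes named are those of each list with the largest rise and fall (up to 2 each way) among genes called and well above background on both arrays, plus Ccr2, Csf1r, Plaur and Cx3cl1. F13a1, Ms4a4c, Nr4a1, Ly6h, Lynx1, Slurp1, Kdr and the dim markers were named after their values were seen. So were Itgal, Spn, Camp, C1qb, Trem1, Trem3, Treml2, Gml and Ly6m. The 11 alternatives were normexp correction (offset 50) of the median spot and background intensities that the authors deposited, quantile normalization, cyclic loess, scaling on the median or on the 75th percentile of detected probes, the deposited log2 values, a stricter and no background filter, flagged spots kept, a gene's median over its probes, and a 2-fold threshold. The steps were tested on simulated data. Python 3.11.15, numpy 2.4.6, pandas 2.3.3, matplotlib 3.10.9, R 4.3.3 and limma 3.58.1 were used.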

Additional observations from a re-analysis of the deposited data

How the results depend on the processing

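Over the scaling and filter alternatives, Ly6e stayed called lower and Cx3cr1 and Treml4 stayed called higher. Adgre1 joined Ly6e with quantile normalization, cyclic loess, the 75th percentile of detected probes and the deposited values, which gave 2 member genes and 2 member probes lower under each. At a 2-fold threshold 0 member genes and 0 member probes were higher, and all genes gave 428 higher and 681 lower, all probes 793 and 1039. With normexp correction all genes gave 625 higher and 655 lower, all probes 961 and 923. That setting changes the input signal, the background method and the offset together, and the cause was not tested. With no background filter 2903 genes were higher and 2212 lower, and 6010 probes were higher and 3757 lower. Of all called genes 48.9% were higher, 38.5% with cyclic loess (1244 higher and 1991 lower) and 56.8% with no filter. By probe these shares were 53.4%, 42.4% and 61.5%. Of 77 values of single member probes under alternatives, 76 moved by less than the spot error, and the exception was the second Cx3cr1 probe with normexp correction (0.41). Most of these settings rescale a whole array, and the spot error is close to a fixed share of the signal. The count therefore says little about how firm the member values are. The median of all genes moved by at most 0.07 in size. No array could be left out, and no paired analysis was possible because each diet has 1 array. No alternative stands in for replicate mice.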
